A study of Rattus norvegicus with 4 samples.

Results

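Open chromatin was examined around 4 genes, Myc, Jun, Fos and Egr1, in retinal ganglion cells (RGCs) of the rat. Every open chromatin region (OCR) listed within 50 kb of the gene body was taken, with gene bodies at chr7:102586313-102591240 for Myc, chr5:114011184-114014277 for Jun, chr6:109300433-109303299 for Fos and chr18:27657628-27661429 for Egr1 on the rn6 build. The rule used position only and no measured value. It found 176 of the 601785 OCRs in the 4 lists of the series, with 41 in each E21 list and 48 and 46 in the lists of P11 replicates 1 and 2. Merged across libraries wherever they overlapped, the OCRs formed 56 of the 228726 consensus regions, of which 8 lay in the Myc window, 15 in the Jun window, 15 in the Fos window and 18 in the Egr1 window.

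RGCs were immunopanned from the retina of E21 embryos (21 days) and of P11 pups (11 days). Dissociation was not matched, since the study's methods give more papain for P11 retinas than for E21 retinas. Dissociation and panning lasted hours, and the methods cite earlier work in which expression changes during dissociation were small and confined to immediate early genes. The genes examined here also respond quickly to stimulation, and any effect of this handling on their chromatin was not tested. Both stages then passed through the same freezing step as batches of 300000 cells before ATAC-seq. In this assay a transposase cuts and tags accessible DNA. Each stage had 2 libraries, and the study's methods give a separate litter for each. The animals of both stages were Sprague Dawley rats, with no genotype or treatment named for either stage. The study asks which chromatin closes or opens while RGCs lose the capacity to extend axons. Immunopanning selects cells by a surface antigen, and the purity of these preparations was not examined here, since no gene annotation on the build of the lists was used.

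The 4 genes encode transcription factors whose messages rise quickly when a cell is stimulated. Jun and Fos are subunits of AP-1, a dimer that binds DNA through paired leucine zippers, and Jun is well known as an injury-induced factor in neurons. Egr1 is a zinc finger factor induced by neuronal activity and growth factors. Myc, which binds E-boxes together with its partner Max, drives growth and biosynthesis and has been linked to axon regeneration in the optic nerve. Promoters of such genes are classically switched by CREB at cAMP response elements (CREs) and by serum response factor at CArG boxes.

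The Egr1 promoter is shown because the strongest OCR of the Egr1 window lay at the lower-coordinate end of the gene, where its start is on the GRCr8 build. The 250 bases before the RefSeq start of Egr1, at chr18:26736828-26737077 on GRCr8 and on the plus strand, carry in capitals the matches to the CRE half-site TGACG on either strand and to the CArG box.

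Egr1: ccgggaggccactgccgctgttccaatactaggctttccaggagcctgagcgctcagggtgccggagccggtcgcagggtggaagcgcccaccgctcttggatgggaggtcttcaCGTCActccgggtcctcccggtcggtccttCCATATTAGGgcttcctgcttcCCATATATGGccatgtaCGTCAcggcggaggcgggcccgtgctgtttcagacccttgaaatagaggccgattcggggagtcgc

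The CRE half-sites lay 135 to 131 and 66 to 62 bases before the start, and the CArG boxes 105 to 96 and 83 to 74 bases before it. On both strands, this window held 0 matches to the full CRE (TGACGTCA), to the AP-1 site (TGANTCA), to the E-box (CACGTG) and to the EGR site (GCGNGGGCG). Among 33469 promoters of the same length in the RefSeq table, 18.2% held a CRE half-site, 1.5% a CArG box, 1.59% a full CRE, 6.34% an AP-1 site, 5.59% an E-box and 4.29% an EGR site. The half-site is contained in the full CRE and was added to the search after the sequence had been seen. A match describes letters and is not a bound site. The OCR positions are on rn6 and this sequence is on GRCr8, so they were not laid over each other. Of the 4 genes, Egr1 was the 1 found in the promoter table, and Myc, Jun and Fos are named only.

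The build was checked at a pair of housekeeping genes. The strongest OCR within 1 kb of Actb, a cytoskeletal actin, ranked between 90.1 and 96.2, and that of Gapdh, a glycolytic enzyme, between 97.2 and 99.4, where the rank is the percentile of an OCR by −log10 q within its own library. The lists held from 125917 to 166702 OCRs. The fold and p value of each OCR gave back the number of fragments piled up at its summit, and the pileup expected from the genome-wide background came to 4.80 and 5.03 fragments in E21 replicates 1 and 2 and to 4.30 and 4.17 in the P11 replicates. Summit pileups are therefore also given as scaled pileups, that is divided by the background pileup of the library. Over the 82432 regions called in all 4 libraries the median log2 ratio of the scaled pileup, P11 over E21, was −0.31, and changes are set against that value below.

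The windows were denser in OCRs than the genome. They held 9.89 OCRs per 100 kb in each E21 library and 11.6 and 11.1 in P11 replicates 1 and 2, against 4.53, 5.56, 5.57 and 6.0 over the whole genome in E21 replicates 1 and 2 and P11 replicates 1 and 2. The OCRs in the windows also ranked higher than the middle of their lists, with medians of 67.5, 70.5, 65.8 and 67.9 in the same order. No test was made of either difference, because windows around genes are not a random sample of the genome.

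The number of OCRs differed little between stages once list length was taken into account. An E21 library held 41.0 ± 0 OCRs and a P11 library 47.0 ± 1.41 (SD, n = 2 per stage), a gap of 6 that gave p = 0.333 by an exact two-sided permutation test, the smallest p that 2 against 2 libraries can give. As a share of the list, the counts were 32.6 and 26.6 OCRs per 100000 at E21 and 31.0 and 27.6 at P11, which overlap (exact permutation p = 1). The genes moved in different directions. The Myc window held 7 and 6 OCRs at E21 and 5 and 5 at P11, without overlap. The Jun window held 7 and 9 at E21 and 10 and 13 at P11, also without overlap. The Fos window held 12 and 13 against 15 and 13, and the Egr1 window 15 and 13 against 18 and 15, and in both windows the stages overlapped or touched. The exact permutation p was 0.333 for Myc and Jun and 0.667 for Fos and Egr1, so at this number of libraries no window passes a test.

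**Figure D1:**
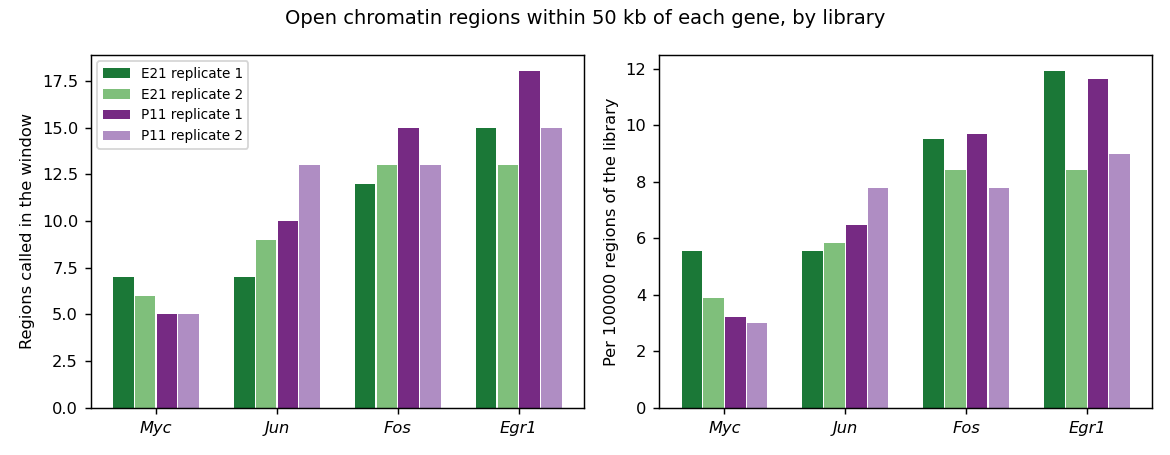
The left panel gives the number of OCRs within 50 kb of each gene in each library, and the right panel the same number per 100000 OCRs of the library's list. The Myc bars are lower at P11 (5 and 5, against 7 and 6), the Jun bars are higher at P11 (10 and 13, against 7 and 9), and per 100000 OCRs the Fos and Egr1 bars of the stages interleave.

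In every window the strongest OCR over the gene body or within 1 kb of it was present in all 4 libraries. At Jun it ranked 99.6 and 99.5 at E21 and 99.7 and 99.6 at P11. At Egr1 it ranked 97.9 and 98.9 at E21 and 99.1 and 98.4 at P11. At Fos it ranked 95.6 and 96.0 at E21 and 97.2 and 96.5 at P11. By −log10 q Jun thus stood among the strongest OCRs of each list, and the Egr1 and Fos OCRs were in the top 5% throughout. At Myc it ranked 87.5 and 90.5 at E21 and 79.0 and 83.9 at P11, the lowest of the 4 genes in each library and the 1 case in which P11 lay below E21.

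The Myc OCR fell by 7.59 points in rank, more than the SD of either stage (2.12 at E21 and 3.43 at P11), and its stages did not overlap. The Fos OCR ranked 1.07 points higher at P11 without overlap (SD 0.290 and 0.476), although a rank by fold in place of −log10 q turned this to −4.28 with overlap, and lists of equal length gave 0.636 with overlap. Jun and Egr1 differed by 0.08 and 0.33 points, with overlapping stages. By fold the Jun OCR ranked 80.1 and 74.5 at E21 and 90.0 and 85.8 at P11, a difference of 10.6 points without overlap. Without the 1 kb margin the Egr1 difference was 10.3 points, also without overlap, but it compared unlike regions. In E21 replicate 2 the strong Egr1 OCR ended at −19 bp from the lower-coordinate end, outside the gene body. A weaker OCR inside the gene body, ranked 79.0, took its place in that library. The exact permutation test gave p = 0.333 for Myc and Fos and 0.667 for Jun and Egr1, and 0.667 for each after Benjamini-Hochberg adjustment over the 4 genes.

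Scaled pileups set the stages apart at all 4 genes, which ranks by −log10 q did not. The scaled pileup at Myc reached 43.5 and 47.1 at E21 and 21.2 and 25.4 at P11, from summit pileups of 209, 237, 91 and 106 fragments. The Poisson 95% intervals ran from 37.8 to 53.5 over the E21 libraries and from 17.0 to 30.8 over those of P11, without overlap. They treat fragments as independent and cover counting error only, not the spread between libraries. The stages were not tested with them. E21 stood 1.94-fold above P11, a log2 ratio of −0.96. Set against the median of all shared regions this was −0.65, and 14% of those regions had a lower ratio. By percentile rank of summit pileup within the library, the Myc OCR stood at 94.4 and 96.7 at E21 and 92.2 and 94.4 at P11. That difference was −2.23 points, and E21 replicate 1 and P11 replicate 2 were nearly level. This rank was chosen after seeing the data. At Jun the scaled pileup reached 158 and 129 at E21 and 93.9 and 94.5 at P11, a ratio of 1.52 in favour of E21. At Egr1 it was 98.3 and 99.9 against 78.4 and 68.4, a ratio of 1.35, and at Fos 70.2 and 63.6 against 56.5 and 52.5, a ratio of 1.23. All 4 genes were therefore taller at E21 without overlap (exact permutation p = 0.333 each, adjusted 0.333), but a general shift of the same sign ran through the lists. Set against that general shift, the log2 ratio differed by 0.01 at Fos (−0.29), by −0.13 at Egr1 (−0.43) and by −0.30 at Jun (−0.61). By this description 50.7% of shared regions had a lower ratio than Fos, 42.1% than Egr1 and 31.5% than Jun.

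**Figure D2:**
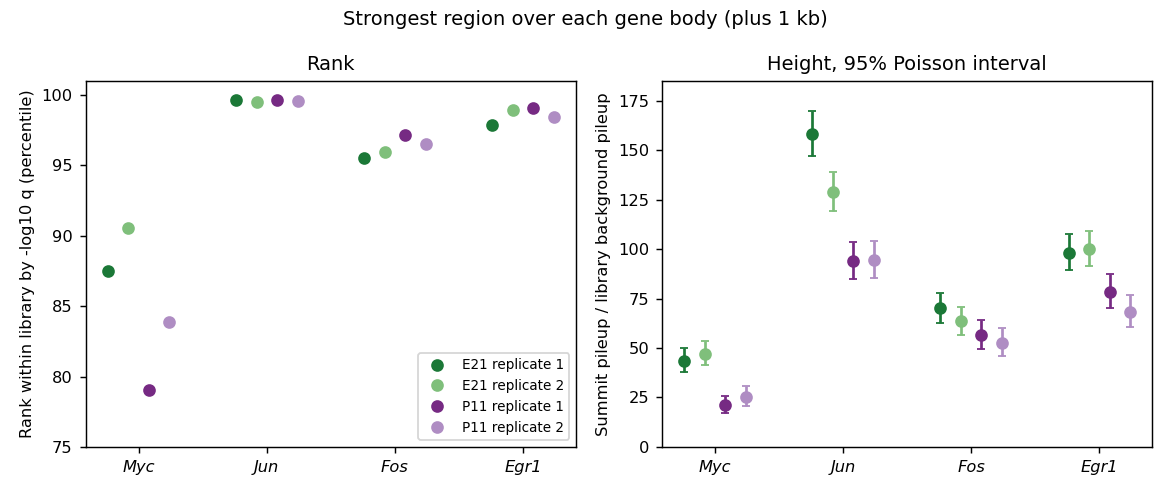
Points give each library's strongest OCR over the gene body plus 1 kb, as its percentile rank on the left (axis from 75) and as its scaled summit pileup with a Poisson 95% interval on the right. The Myc points are separated by stage in both panels, while the Jun points lie between 99.5 and 99.7 in rank and between 93.9 and 158 in scaled pileup.

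Summit positions were closest between libraries at Egr1. Positions are counted from the lower-coordinate end of the gene body, because the lists carry no strand. At Egr1 the summit lay at −483, −482, −420 and −487 bp, negative values being outside the gene body, in the order E21 replicates 1 and 2 and P11 replicates 1 and 2. At Jun it lay 3296, 3299, 3202 and 3191 bp from that end, just past the higher-coordinate end of a gene body 3094 bp long, and the stages did not overlap. At Fos it lay at −322, −317 and −321 bp in the first 3 libraries and at 2 bp in P11 replicate 2, whose OCR was 1444 bp wide against 642 to 905 bp in the others. At Myc it lay 244, 246, 61 and 239 bp inside.

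The called shape of the Myc OCR differed with stage. At E21 it was a single stretch of 1309 and 1376 bp. At P11 the same ground held a pair of OCRs in each library. The main one was 830 and 1069 bp wide, and the small one, at its outer edge, 184 and 179 bp. The small one ranked 48.2 and 30.5. Whether the lower pileups at P11 played a part in this split was not tested. The local background around the Myc summit was 35.3 and 39.4 fragments at E21 and 22.3 and 23.3 at P11, or 7.34 and 7.83 times the genome-wide background at E21 and 5.19 and 5.59 times at P11.

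A further 2 shared regions lay inside the Myc gene body. The first, at chr7:102587559-102588261, ranked 55.4 and 53.0 at E21 and 63.1 and 42.2 at P11, and its stages overlapped in rank. The second, at chr7:102588522-102589256, ranked 68.0 and 66.9 at E21 and 66.1 and 62.5 at P11. The pair were taller at E21 without overlap, with scaled pileups of 22.9 and 23.2 against 17.0 and 15.4 for the first and 27.5 and 28.0 against 17.7 and 18.7 for the second. Their log2 ratios were −0.51 and −0.61, so all 3 shared regions of the Myc window sat on the gene and all 3 lay below the general shift.

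Beyond the gene, the Myc window was nearly empty. At chr7:102637744-102638253, 46.5 kb past the higher-coordinate end, a region was called at E21 only, with ranks of 58.4 and 69.0, folds of 7.24 and 8.95 and summit pileups of 41 and 53 fragments. At P11 no OCR was called here, and the lists give no pileup where nothing is called. The weakest OCR of a P11 list had 13 fragments, and the part of depth in the missing calls was not tested. A region 0.53 kb past the same end was also called at E21 only, at ranks of 26.0 and 51.5. The remaining regions of the window were 1 on the lower side, called in 3 libraries, and 2 weak ones on the higher side, called in a single library each. On the lower side the next OCR outside the window in any library was 233 kb away.

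**Figure D3:**
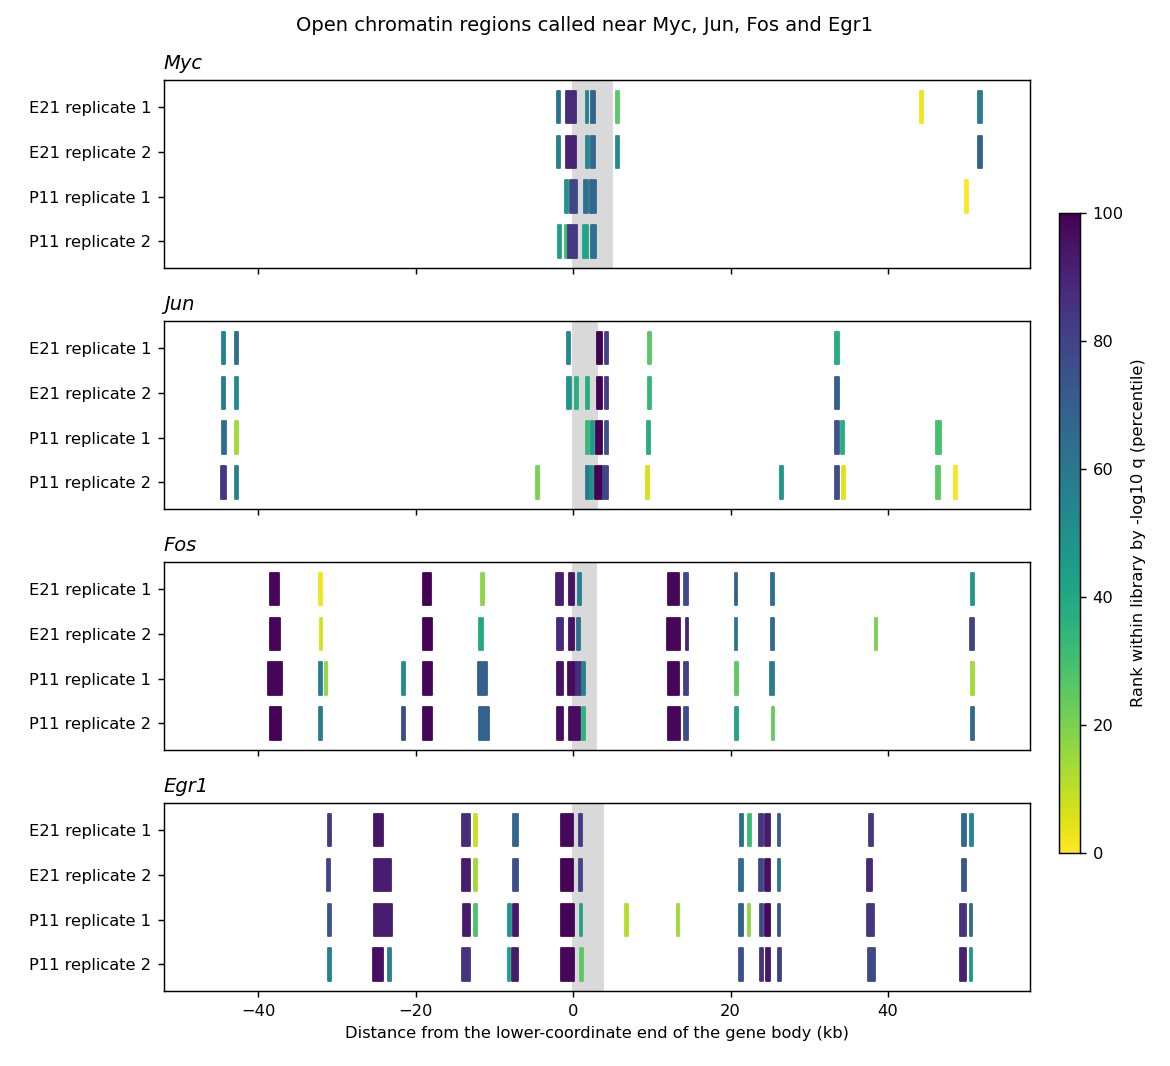
Bars mark every OCR in the 4 windows by library, placed by distance in kb from the lower-coordinate end of the gene body (grey) and coloured by percentile rank. The Myc window is empty on its lower side apart from the bars next to the gene, and the Fos and Egr1 windows hold dark bars on both sides in all 4 libraries.

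The Jun window combined 1 very strong region with weak surroundings. The region at chr5:114014023-114014847 had summit pileups of 759 and 649 fragments at E21 and 404 and 394 at P11. Next to it, at chr5:114014993-114015659, a second shared region ranked 80.3 and 81.7 at E21 and 74.8 and 78.9 at P11, with scaled pileups of 51.2 and 50.1 against 28.6 and 33.4. Both were taller at E21 without overlap. The log2 ratio of the second was −0.71, and 25.7% of shared regions had a lower one.

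At the opposite end of Jun a region was called at E21 only, at chr5:114010427-114010928, 0.26 kb outside the gene body. Its ranks were 53.6 and 47.7, with summit pileups of 165 and 157 fragments but folds of only 2.29 and 2.16, over a local background of 71.4 and 72.2 fragments. Inside the gene body, at chr5:114013387-114013830, a region was called at P11 only, with ranks of 45.3 and 49.5, pileups of 97 and 104 fragments and folds of 2.18 and 2.26. The local background beside the strongest Jun summit was 74.0 and 74.9 fragments at E21 and 43.7 and 45.7 at P11. The part of the local background in these stage-specific calls was not tested. The other P11-specific regions of the window, 31.0 and 43.0 kb past the higher-coordinate end, ranked between 5.0 and 37.7.

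Shared regions far from Jun varied between replicates as much as between stages. The region 30.2 kb past the higher-coordinate end ranked 38.3 and 70.5 at E21 and 74.6 and 76.1 at P11, without overlap. The region 42.6 kb before the lower end ranked 64.0 and 51.9 at E21 and 14 and 55.3 at P11, with overlap. The region 44.2 kb before the lower end ranked 55.9 and 58.5 at E21 and 64.6 and 83.6 at P11, without overlap. None met the rank criterion described below. In each, the replicates of a stage (E21 in the first, P11 in the others) lay further apart than the stage means.

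The Fos window had the most strong distal chromatin. Of its 15 regions, 11 were called in all 4 libraries, and 4 of those ranked at or above the 95th percentile in every library, against 1 in the Jun window, 1 in the Egr1 window and 0 in the Myc window. Over all shared regions 5.55% met this criterion. Besides the region on the gene they lay 37.0 and 18.0 kb before the lower-coordinate end and 9.13 kb past the higher-coordinate end. They were singled out after their values had been seen.

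The region at chr6:109261705-109263387, 37.0 kb before Fos, ranked 98.8 and 99.1 at E21 and 98.8 and 99.3 at P11. The region at chr6:109281338-109282474, 18.0 kb before Fos, ranked 99.6 and 99.4 at E21 and 98.5 and 98.7 at P11. The region at chr6:109312425-109313984, 9.13 kb past Fos, ranked 98.3 and 98.4 at E21 and 98.5 and 98.2 at P11. All 3 outranked the OCR on the Fos gene in every library. Their scaled pileups were nevertheless lower at P11 without overlap, at 82.7 and 77.1 against 57.0 and 64.1 for the first, 112 and 85.4 against 54.0 and 54.5 for the second and 86.0 and 74.5 against 54.2 and 47.3 for the third. The log2 ratios were −0.40, −0.87 and −0.66, all below the general shift.

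Other Fos regions changed place between stages. The region at chr6:109268202-109268545, 31.9 kb before the gene, ranked 2.3 and 6.5 at E21 and 57.4 and 57.8 at P11, a gain of 53.2 points, with summit pileups of 17 and 19 fragments rising to 38 and 40. The region at chr6:109288384-109289743, 10.7 kb before the gene, ranked 17.2 and 39.4 at E21 and 70.2 and 69.2 at P11, a gain of 41.4 points, with pileups of 22 and 30 against 43 and 46. Their scaled pileups rose 2.52-fold and 2.0-fold, and 98.9% and 96.7% of shared regions had a lower log2 ratio. The second also widened, from 299 and 475 bp at E21 to 1113 and 1307 bp at P11. A strong region 1.26 kb before the gene, outside the 1 kb margin, was named after its values were seen. It ranked 91.6 and 88.1 at E21 and 95.4 and 96.9 at P11, without overlap. In P11 replicate 2 it outranked the OCR on the gene. Its scaled pileups overlapped between stages, with a log2 ratio of 0.06.

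On the same side of Fos, the region at chr6:109278682-109278919 lay at −21.5 kb and was called at P11 only, with ranks of 51.6 and 76.6, folds of 2.83 and 4.01 and pileups of 65 and 87 fragments. Its local background at P11, 22.3 and 21 fragments, was well above the genome-wide level. On the other side the region at chr6:109320947-109321302, 17.6 kb past the gene, ranked 68.2 and 60.3 at E21 and 24.6 and 41.2 at P11, so that it fell by 31.3 points, with pileups of 52 and 44 fragments against 20 and 24. The region 22.2 kb past the gene ranked 63.7 and 65.7 against 58.1 and 23.6, and lay just under the criterion. Within 50 kb of Fos, the regions that met the criterion in favour of P11 therefore lay before the lower-coordinate end, and the 1 in favour of E21 lay past the higher-coordinate end.

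The most distant Fos region showed how far replicates could part. It lay 47.6 kb past the gene, was called in all 4 libraries, and ranked 46.6 and 80.8 at E21 and 14 and 66.6 at P11. Its mean rank dropped by 23.4 points, against SDs of 24.2 and 37.2.

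**Figure D4:**
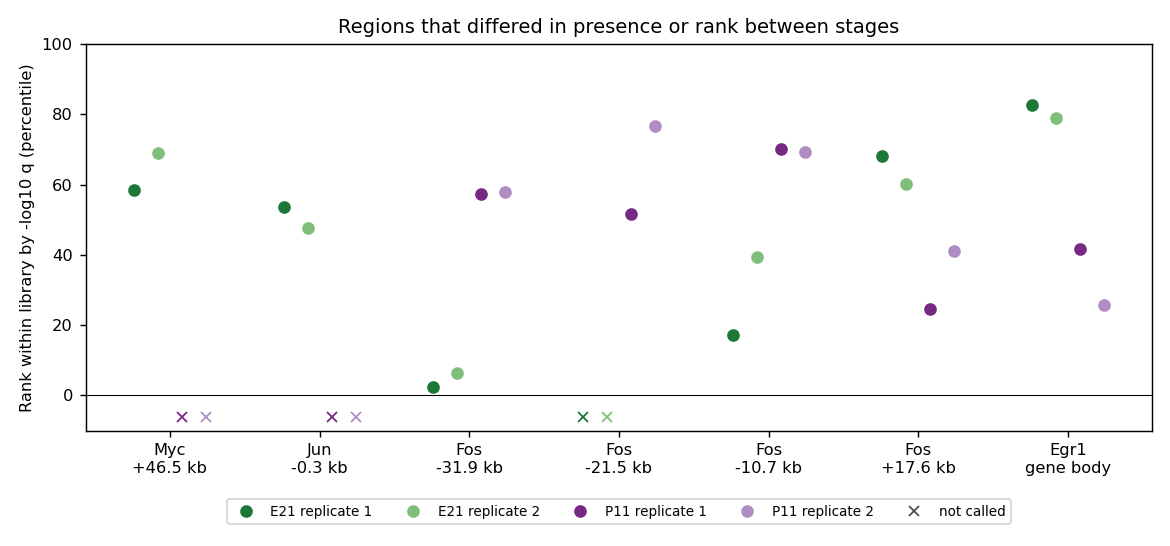
Points give the percentile rank in each library of the 7 regions that were stage-specific with a mean rank of at least 50 or that met the rank criterion, and crosses mark libraries without a call. The Fos region 31.9 kb before the gene shows the widest gap among shared regions, from 2.3 and 6.5 at E21 to 57.4 and 57.8 at P11.

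At Egr1 the strong region at the lower-coordinate end of the gene had a weaker neighbour inside the gene body that changed much more. The region at chr18:27658419-27658789, which begins 791 bp inside the lower-coordinate end, ranked 82.5 and 79.0 at E21 and 41.8 and 25.7 at P11, so that it fell by 47.0 points. Its folds were 4.11 and 3.64 against 2.12 and 1.97, and its summit pileups 217 and 206 fragments against 96 and 87. On the scaled pileup E21 stood 1.99-fold above P11, and 12.7% of shared regions had a lower log2 ratio. The strong region itself (chr18:27656029-27657763) fell by 0.43 on the log2 scale of the scaled pileup. On that scale the 2 neighbours differed in the size of the change and not in its sign. In rank the strong region stood 0.33 points higher at P11, with overlapping stages.

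A region at chr18:27649901-27650689, 6.94 kb before Egr1 and singled out after its values had been seen, moved the other way. It ranked 67.5 and 76.1 at E21 and 94.1 and 92.8 at P11, and its summit pileup was 59 and 75 fragments against 119 and 111. The gain of 21.7 points was under the 25 points of the criterion, yet the scaled pileup rose 2.0-fold, and 96.7% of shared regions had a lower log2 ratio. Beside it, 8.12 kb before the gene, a small region was called at P11 only, with ranks of 48.4 and 43.1 and pileups of 52 and 50 fragments.

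Among the other distal regions of Egr1, some moved with stage and some overlapped. The region 30.9 kb before the gene ranked 83.3 and 78.8 at E21 and 74.1 and 56.3 at P11, and its scaled pileup was 1.92-fold higher at E21 without overlap. The region 45.4 kb past the gene ranked 66.2 and 73.4 at E21 and 84.8 and 91.0 at P11. These regions did not overlap in rank, and neither did the regions 17.3 and 22.2 kb past the gene, which ranked 7.16 and 11.3 points higher at P11, and all 4 gaps were under the 25 points of the criterion. The region 33.5 kb past the gene overlapped in rank but stood 1.72-fold higher at E21 on the scaled pileup without overlap. The region at chr18:27632257-27634605, 23.0 kb before the gene and 2349 bp wide, ranked 94.8 and 92.3 at E21 and 92.3 and 96.3 at P11. The region at chr18:27682068-27682687, 20.6 kb past the gene, ranked 92.8 and 96.1 at E21 and 97.7 and 94.3 at P11. The stages overlapped in each of them. In the GRCr8 annotation the same distance around Egr1 takes in Kdm3b, Reep2 and Etf1, and no OCR was assigned to any of them.

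Counted over all windows, 32 of the 56 regions (57.1%) were called in all 4 libraries, against 36.0% of regions in the series, and 10 (17.9%) in a single library, against 27.5%. By gene, the regions called in all libraries were 3 of 8 for Myc, 6 of 15 for Jun, 11 of 15 for Fos and 12 of 18 for Egr1. On the gene bodies 7 of 11 regions were called in all libraries, within 10 kb of them 5 of 12, and between 10 and 50 kb 20 of 33.

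Stage-specific regions, those that both libraries of 1 stage held and both of the other lacked, were no more frequent here than elsewhere. There were 3 E21-specific regions (5.36% of 56), 2 near Myc and 1 near Jun, against a background of 7.61% of all regions. There were 6 P11-specific regions (10.7%), 3 near Jun, 2 near Fos and 1 near Egr1, against a background of 12.5%. The Myc window thus held 0 P11-specific regions, and the Fos and Egr1 windows held 0 E21-specific ones, counts too small to set the genes apart.

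A shared region was called rank-shifted where the ranks of the stages did not overlap and their means were 25 points or more apart. The 2 regions ranked higher at E21 were 6.25% of the 32 shared ones, against a background of 8.61%, and the 2 ranked higher at P11 were again 6.25%, against 12.2%. Without the minimum of 25 points, 8 of the 32 ranked higher at E21 and 10 higher at P11 without overlap, against 26.8% and 33.1% of all shared regions. None of these shares by rank stood above its background. On the scaled pileup 19 of the 32 were higher at E21 without overlap, a share above the 49.4% of all shared regions. The 4 that were higher at P11 were a share below the 17.9% of all shared regions. Neither difference was tested. The median log2 ratio over the 32 regions was −0.46, against −0.31 over all shared regions, with values below 0 in 24 of 32 (75%) against 67.6%. The 32 ratios ran from −0.99, at the region inside Egr1, to 1.33, at the region 31.9 kb before Fos.

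**Figure D5:**
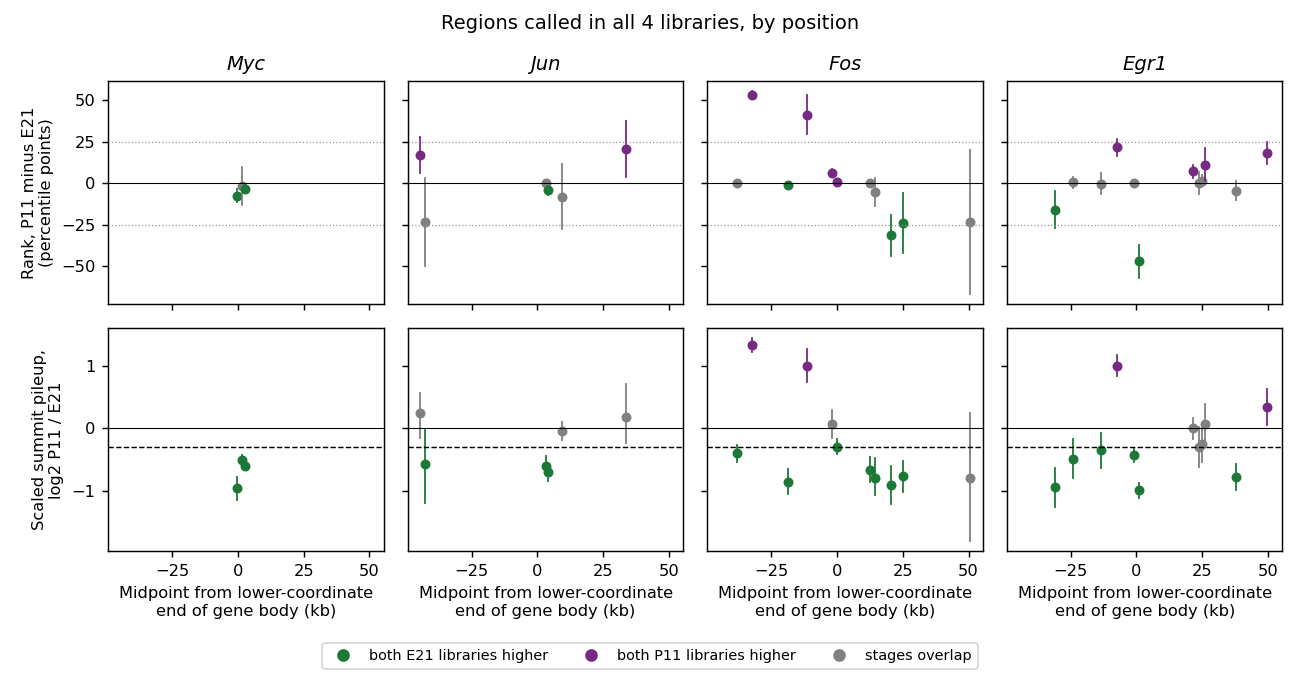
Each point is a region called in all 4 libraries, placed by its midpoint, with the P11 minus E21 difference of the mean rank above and the log2 ratio of the mean scaled pileup below. Lines span the 4 pairs of an E21 and a P11 library, dotted lines mark 25 points, the dashed line marks the median of −0.31 over all shared regions, and 19 of 32 lower points are green (both E21 libraries higher).

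The 50 kb limit fell in different surroundings at each gene. At Myc the outermost region on the higher side lay 46.5 kb from the gene, and the next one outside, at 57.2 kb, was called in all 4 libraries with a highest rank of 95.1. At Jun a region inside at 44.2 kb before the lower end was called in all libraries, and one just outside at 50.6 kb in a single library. At Fos the region inside at 47.6 kb and the next outside at 55.8 kb, both past the higher end, were called in all libraries. At Egr1 a region at 46.6 kb past the gene was called in 3 libraries, and one outside at 51.6 kb in 2.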

How the data were processed

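ATAC-seq was run on 4 libraries of rat RGCs, and stage and replicate were taken from the sample titles. The authors called OCRs in each library separately, without pooling replicates. The submitters' processing notes name MACS2 and the builds Rnor_6.0 and rn6, and the study's methods name the ATAC-seq Integrative Analysis Package. Versions and settings are not given in the sources used here. For each OCR the deposited list holds a score (10 times the −log10 q), a fold enrichment (a ratio of the summit over local background), a −log10 p value and a −log10 q value, with positions. The authors' lowest −log10 q was between 2.01 and 2.02. The lists hold no reads, so the authors' differential test on reads was not rerun.

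OCRs of the 4 lists were merged at 1 bp overlap, and each region took its best OCR in a library. Percentile ranks by −log10 q were taken within a library. Summit pileup and local background were solved from fold and p value, and gave whole fragments within 0.02 for 100% of OCRs. The weakest OCR had 13 or 14 fragments. Stages were compared over libraries with an exact two-sided permutation test, which measures only the spread between these libraries. The calculations, tested on simulated data, used python 3.11.15, pandas 2.3.3, numpy 2.4.6, scipy 1.17.1 and matplotlib 3.10.9.

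Regions named by rule were the strongest over each gene body plus 1 kb, stage-specific regions with a mean rank of at least 50, and the 2 largest rank shifts per direction and window. Others named were chosen after their values were seen. The genes, lists and tests were chosen with earlier results of these data known. A wider list of immediate-early, AP-1 and Myc-family genes and the cell type markers were not run, since no rn6 annotation was used here. Alternatives were windows of 10 and 100 kb, a −log10 q of at least 5, the 125000 strongest OCRs per library, a reciprocal overlap of 50%, each library left out, a replicate block, ranks by fold or summit pileup, differences of 10 and 40 points, and the gene body without margin.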

Additional observations from a re-analysis of the deposited data

How the results depend on the processing

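Of 95 alternative values, 71 kept their direction or, for counts, stayed within 1.5 times the reported count, though some of them moved in size. The OCR count difference ran from 1 to 12.5 and the Myc rank difference from −16.5 to −2.23, so both kept their sign. P11-specific regions numbered 3 with a 10 kb window and 10 with a 100 kb window. E21-specific regions numbered 5 with a reciprocal overlap of 50%. Regions ranked higher at E21 numbered 1 with a 10 kb window, the reciprocal overlap, ranks by fold or a 40-point difference, and 4 with a 100 kb window or a 10-point difference. Regions ranked higher at P11 numbered 0 with a 10 kb window, 4 with a 100 kb window, 1 with the reciprocal overlap, with equal list lengths or with −log10 q limited to 5 and above, and 7 with a 10-point difference. Leaving out one library gave 4 to 5 E21-specific and 7 to 10 P11-specific regions, and 2 to 4 ranked higher at either stage. The count of 10 came without either P11 library and that of 5 without replicate 1 of either stage. The count of 4 came at E21 without P11 replicate 2 and at P11 without E21 replicate 2. Fewer libraries then had to hold a region, by construction. The Egr1 rank difference ran from −0.20 (without E21 replicate 1) to 0.86 (without E21 replicate 2) when a library was left out. It was 2.37 by fold and 10.3 for the gene body without margin, where a weaker region stood in for E21 replicate 2. The Fos difference was −4.28 by fold, and that of Jun 10.6 by fold, with the stages apart, and −0.037 by summit pileup, a rank chosen after seeing the data. Other causes were not tested. The replicate block changed no value or count (a count difference of 6, 2 and 2 shifted regions), and its smallest p was 0.5. Same-numbered libraries correlated at 0.028 in their deviations from the stage means. With 2 libraries per stage this value cannot exclude that the numbers pair them. Depth limits absence, since the weakest call of a list had 13 or 14 fragments. Weak calls over a high local background held more, such as 87 fragments over 43.6 inside Egr1 in P11 replicate 2.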
